A study of Mus musculus and Rattus norvegicus with 32 samples.

Results

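Mt1 and Mt2 encode metallothioneins, and these 2 genes were each represented by 1 mouse probe set, 93573_at for Mt1 and 101561_at for Mt2, among 12987 genes with a single symbol (8251 in mouse, 4736 in rat) and 21162 probe sets of liver arrays. The members were all probe sets annotated with the single symbol Mt1 or Mt2, or in rat also Mt1a, Mt1m or Mt2A. No rat probe set met that rule. A further 2 rat probe sets listed such a symbol together with others, and they are described by their identifiers. The 2 genes were chosen by their measured TCE minus oil changes in mouse, which differ in sign between dosing schedules, so those changes are given as a description without a test.

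Metallothioneins are small cysteine-rich proteins that bind zinc and copper, and also cadmium. In liver their transcripts are known to be induced by metals through the zinc-sensing transcription factor MTF-1, by glucocorticoids, by interleukin 6 through STAT3 and by oxidants. Mt1 and Mt2 lie next to each other in the mouse genome. In the GRCm38.p6 annotation Mt4, Mt3, Mt2 and Mt1 follow one another on chromosome 8, with 1 predicted non-coding RNA gene between Mt3 and Mt2.

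Trichloroethylene (TCE), a chlorinated solvent, was given in corn oil by gavage at 1500 mg per kg body weight, and oil animals received corn oil alone. Male B6C3F1 hybrid mice and male SD rats were dosed for 1 day, with an age of 8 weeks, or daily for 14 days, with an age of 10 weeks, and liver RNA was prepared from tissue collected 18 h after dosing ended. The 8 groups were TCE and oil at 1 dose and at 14 days in mouse, and the same in rat, with 4 arrays each. Whether arrays stand for separate animals is not stated, and p-values then reflect only the spread among these samples, which may be technical. In the deposited tables each value is divided by the oil median of its own schedule, with 4 oil arrays behind each median. No signal level is left in such a ratio, so liver markers could not be checked on levels. Precision is limited by having 4 arrays a group. In bulk liver, fewer cells of a type and less RNA per cell cannot be told apart.

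Since MTF-1 acts through metal response elements in metallothionein promoters, the windows from 250 bases before to 50 bases after their annotated start were read from RefSeq (GRCm38.p6, plus strand). Both symbols matched, and matches to the metal response element core are in capitals (TGCACNC or TGCGCNC on either strand, where N is any base).
Mt1, chr8:94178839-94179138: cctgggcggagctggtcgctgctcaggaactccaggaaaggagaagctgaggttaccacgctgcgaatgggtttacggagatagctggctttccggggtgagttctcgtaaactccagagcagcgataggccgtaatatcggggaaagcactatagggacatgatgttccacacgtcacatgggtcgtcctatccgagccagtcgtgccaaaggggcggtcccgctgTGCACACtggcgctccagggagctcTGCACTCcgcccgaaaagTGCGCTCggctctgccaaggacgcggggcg
Mt2, chr8:94172368-94172667: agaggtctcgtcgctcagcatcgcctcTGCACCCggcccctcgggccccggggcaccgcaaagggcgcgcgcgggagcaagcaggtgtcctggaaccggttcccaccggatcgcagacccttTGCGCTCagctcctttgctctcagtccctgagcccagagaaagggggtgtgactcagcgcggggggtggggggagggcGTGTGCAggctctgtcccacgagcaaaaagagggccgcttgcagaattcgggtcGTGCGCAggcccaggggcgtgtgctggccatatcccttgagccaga
The Mt1 window held 3 matches and the Mt2 window 4, while those of Mt3 and Mt4 held 1 each. Of 32851 windows of this length, 25.7% held at least 1 match, 1.97% at least 3 and 0.517% at least 4. In the Mt1 window the matches started at positions -23, 3 and 21 from the annotated start, all on the plus strand. In the Mt2 window they started at -223 and -128 on the plus strand and at -50 and 5 on the minus strand. The antioxidant response element core (TGACNNNGC, either strand) occurred 1 time in the Mt2 window and not in the Mt1 window, against 12.4% of all windows. The E-box CACGTG occurred in neither, against 7.15% of all windows. The antioxidant match overlapped none of the metal response element matches. The windows end 50 bases after the start, and these matches describe letters only. Bases outside the windows were not searched, so a missing match holds for the window and not for the gene.

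After 1 dose both mouse metallothioneins were higher on every TCE array than on any oil array. Mt1 ratios were 3.485, 3.801, 3.055 and 2.446 on TCE arrays 1 to 4, against 0.753, 0.665, 1.391 and 1.247 on oil arrays 1 to 4. Mt2 ratios were 4.685, 4.850, 3.694 and 3.863 on the TCE arrays, against 0.516, 0.631, 1.753 and 1.369 on the oil arrays. The groups did not overlap for either gene, and 7.96% of all mouse probe sets had all 4 TCE arrays above all 4 oil arrays. On the log2 scale Mt1 averaged 1.66 ± 0.28 on TCE arrays and -0.05 ± 0.53 on oil arrays (SD, n = 4 each), a difference of 1.71 ± 0.30 (SE) or 3.27-fold. Mt2 averaged 2.09 ± 0.20 and -0.09 ± 0.85 (SD, n = 4 each), a difference of 2.17 ± 0.35 or 4.51-fold. For both genes the oil arrays were spread more widely than the TCE arrays, with Mt2 at 3.40-fold between the highest and the lowest oil array and 1.31-fold between TCE arrays. Mt2 had the 40th and Mt1 the 113th largest increase of 12422 probe sets.

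After 14 days Mt1 lay below oil while Mt2 overlapped with it. Mt1 ratios were 0.276, 0.428, 0.154 and 0.225 on TCE arrays 1 to 4, against 0.851, 0.905, 1.162 and 1.095 on oil arrays 1 to 4. Every TCE array was below every oil array, as for 12.4% of all mouse probe sets. The log2 means were -1.98 ± 0.61 on TCE arrays and -0.01 ± 0.22 on oil arrays (SD, n = 4 each), a difference of -1.98 ± 0.30 (SE), which leaves a ratio of 0.254. Mt2 ratios were 0.718, 1.051, 0.751 and 0.756 on the TCE arrays, against 0.589, 1.254, 0.839 and 1.161 on the oil arrays. All 4 TCE values fell inside the range of the oil values, and the difference was -0.19 ± 0.35 on the log2 scale. The median change of all mouse probe sets was -0.15 after 14 days, and -0.09 after 1 dose. With arrays centred on their medians the 14-day differences were -1.82 for Mt1 and -0.03 for Mt2.

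**Figure D1:**
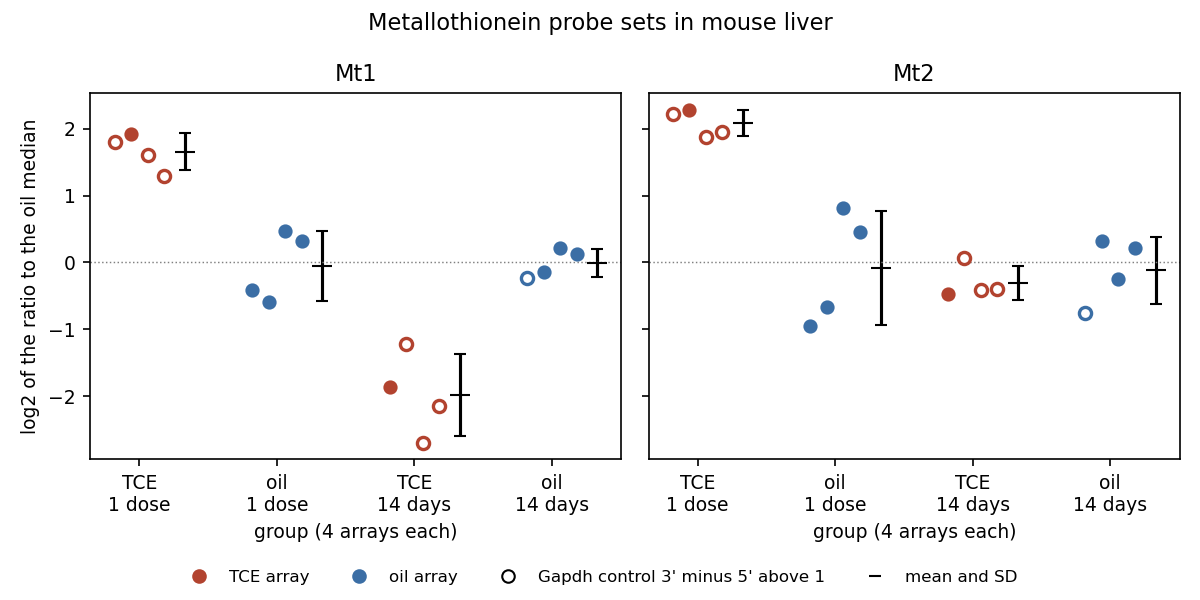
Log2 of the ratio to the oil median (vertical axis) for Mt1 and Mt2 on each mouse array, with TCE in red, oil in blue, and mean and SD as black bars beside each group of 4. Open circles are arrays whose Gapdh control value is above 1. Mt1 is above oil after 1 dose and below it after 14 days, while Mt2 is above oil after 1 dose and overlaps with it after 14 days.

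The change of Mt1 therefore had opposite signs in the 2 schedules, and that of Mt2 was present after 1 dose and near 0 after 14 days. The 14-day change minus the 1-dose change was -3.68 ± 0.43 (log2 ± SE) for Mt1 and -2.36 ± 0.50 for Mt2. Among 12422 probe sets these were the 10th and the 94th lowest values. Mt1 was 1 of 60 probe sets (0.483%) with all TCE arrays above oil after 1 dose and below oil after 14 days. Ordered by the smaller of the 2 changes, Mt1 was at rank 2 of these 60. The oil medians of both schedules are 1 by construction, so a difference in metallothionein level between oil animals of the 2 schedules cannot be seen.

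The 2 genes did not keep a constant relation to each other. The difference between Mt1 and Mt2 on the same array does not depend on how arrays are scaled by a common factor. After 14 days Mt1 minus Mt2 was -1.38, -1.30, -2.29 and -1.75 (log2) on TCE arrays 1 to 4, against 0.53, -0.47, 0.47 and -0.08 on oil arrays 1 to 4. All TCE values lay below all oil values, with means of -1.68 ± 0.45 and 0.11 ± 0.48 (SD, n = 4 each). After 1 dose it was -0.43, -0.35, -0.27 and -0.66 on TCE arrays, against 0.55, 0.08, -0.33 and -0.13 on oil arrays. These groups overlapped, with means of -0.43 ± 0.17 and 0.04 ± 0.38 (SD, n = 4 each). Whether the Mt1 and Mt2 probe sets bind each other's transcripts was not tested.

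**Figure D2:**
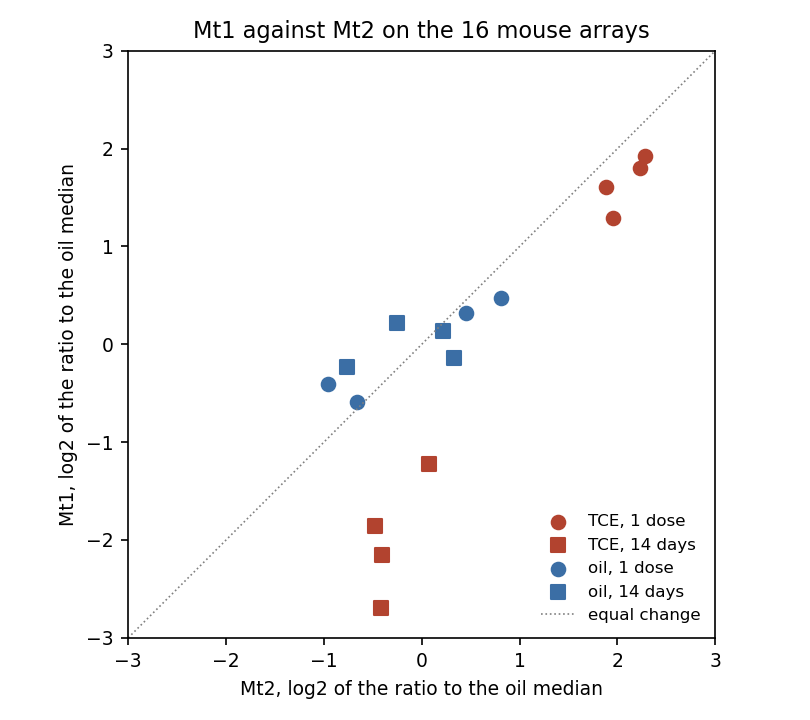
Mt1 (vertical axis) against Mt2 (horizontal axis), both as log2 of the ratio to the oil median, on the 16 mouse arrays, with the dotted line marking equal change. The oil arrays and the 1-dose TCE arrays lie near the line, and the 14-day TCE arrays lie off it by -1.30 to -2.29.

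Among the 1-dose oil arrays Mt1 and Mt2 were high or low on the same arrays, but this was less so among the 14-day oil arrays. On 14-day oil arrays 1 and 4 both genes lay on the same side of the oil median. On the other arrays of that group they lay on opposite sides. Mt1 and Mt2 were -0.14 and 0.33 (log2) on oil array 2, and 0.22 and -0.25 on oil array 3. Over the 8 mouse oil arrays Pearson's r of the log2 ratios was 0.824 and Spearman's rho was 0.833, and r was 0.734 without the 2 arrays whose Mt1 was farthest from the median. These arrays enter the TCE minus oil changes that chose the genes, so the values are a description without a test. Each schedule holds 4 oil arrays, too few for a value within a schedule.

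Control probe sets that track RNA integrity moved with treatment in mouse. The log2 difference between the 3' and 5' Gapdh control ratios was above 1 on 10 of all 32 arrays, 9 of them TCE arrays. In mouse it was above 1 on TCE arrays 1, 3 and 4 after 1 dose, and on TCE arrays 2, 3 and 4 and oil array 1 after 14 days. The mouse TCE arrays without this loss gave Mt1 ratios of 3.801 after 1 dose, the highest of its group, and 0.276 after 14 days. Without arrays above 1, which leaves 1 TCE array per mouse schedule assumed to vary like the other groups, Mt1 differed by 1.98 after 1 dose and -1.93 after 14 days. Mt2 then differed by 2.37 and -0.57. With the Gapdh value as a covariate the changes were 1.94 and -1.86 for Mt1, and 2.46 and -0.04 for Mt2.

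The genes most like Mt1 over the 16 mouse arrays, by Pearson's r of log2 ratios among 8250 other genes, had smaller changes in the same directions. They were 4933434E20Rik (r = 0.924), BC005537 (r = 0.917), Zfp758 (r = 0.907), the spliceosome component Txnl4a (r = 0.901) and the J-domain protein Dnajc8 (r = 0.896). The arrays share their treatment groups and RNA quality, and these values are a description. 4933434E20Rik differed by 0.43 ± 0.16 after 1 dose and -0.88 ± 0.16 after 14 days (log2 ± SE), and Txnl4a by 0.54 ± 0.15 and -0.43 ± 0.15. Dnajc8, whose probe set can bind related transcripts, differed by 0.51 ± 0.12 and -0.30 ± 0.12. Mt2 was at rank 96 with r = 0.808.

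Among 14 measured genes for zinc transport, MTF-1 and other metallothioneins, 0 passed after 1 dose at a limma adjusted p under 0.05 (adjustment across the whole table), and 3 had an unadjusted p under 0.05. Of all mouse probe sets 4.16% were called higher and 4.14% lower. The list's median change was -0.07, against -0.09 for all probe sets. Slc30a1, the zinc exporter of the plasma membrane and a known MTF-1 target, differed by 0.34 ± 0.24 (adjusted p = 0.420), and Mtf1 by 0.20 ± 0.40 (adjusted p = 0.811). Slc30a3, a zinc transporter of synaptic vesicles, had the smallest p of the list, with -0.41 ± 0.15 (adjusted p = 0.110). The others with an unadjusted p under 0.05, named after their values were seen, were higher. Slc30a4 differed by 0.87 ± 0.33 (adjusted p = 0.121) and Slc30a5 by 0.59 ± 0.23 (adjusted p = 0.130).

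After 14 days 1 of these 14 genes rose and 3 fell, where 2.24% of all probe sets were higher and 8.48% lower. Slc39a7, a zinc transporter of the endoplasmic reticulum and Golgi, fell by 1.10 ± 0.33 (adjusted p = 0.0462), a call lost in 13 of 16 fits that each left out 1 array, with an adjusted p of up to 0.134. Slc30a5, which carries zinc into the secretory pathway, fell by 0.80 ± 0.23 (adjusted p = 0.0415), and its other probe set differed by -0.68 ± 0.37 (adjusted p = 0.252). The Slc30a5 call was lost in 9 of 16 such fits. Like Mt1, the called Slc30a5 probe set was 1 of the 60 (0.483%) with all TCE arrays above oil after 1 dose, then below it. The zinc importer Slc39a4, named after its value was seen, fell by 0.53 ± 0.16 (adjusted p = 0.0455). That value is from the less variable of its 2 probe sets, and the other is not given here. With arrays centred on their medians 0 of the 14 were called lower. The list's median change was -0.28.

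Of the neighbours of Mt1 and Mt2 in the gene cluster, Mt3 rose after 14 days and Mt4 passed in neither schedule. Mt3, best known from brain, had ratios of 1.583, 1.982, 1.824 and 1.491 on 14-day TCE arrays, against 0.867, 0.904, 1.325 and 1.096 on 14-day oil arrays. Mt3 rose by 0.73 ± 0.20 (limma adjusted p = 0.0373), where 2.24% of all mouse probe sets were called higher. The call was lost without any 1 of TCE arrays 1, 2 and 3 or oil arrays 1, 2 and 4 of that schedule. The limma adjusted p was then 0.0508 to 0.101. It was also lost with a replicate block (adjusted p = 0.0614) and with only the arrays of the comparison (adjusted p = 0.0785). Without arrays of a Gapdh value above 1, which leaves 1 TCE array, Mt3 differed by 0.53. After 1 dose Mt3 differed by -0.09 ± 0.20 (adjusted p = 0.837). Mt4, best known from stratified epithelia, had ratios of 0.477, 0.345, 0.714 and 0.604 on 1-dose TCE arrays, against 0.293, 0.503, 7.328 and 1.497 on 1-dose oil arrays. The groups overlapped, and 1 oil array stood far above the others (adjusted p = 0.353). After 14 days Mt4 differed by 0.06 ± 0.70 (adjusted p = 0.967). Without signal levels it cannot be said whether Mt3 and Mt4 were above background.

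Copper and iron genes fell or did not pass in mouse. Over all mouse probe sets 4.16% were called higher and 4.14% lower after 1 dose, and 2.24% and 8.48% after 14 days. Of 9 copper handling genes 0 passed after 1 dose and 3 had an unadjusted p under 0.05. After 14 days 2 fell, against 0 with centred arrays and 0 without the arrays of a Gapdh value above 1. Atp7b, the copper exporter of hepatocytes, fell by 1.31 ± 0.39 after 14 days (adjusted p = 0.0462) and differed by -1.34 ± 0.39 after 1 dose (adjusted p = 0.0503). The 14-day call was lost in 11 of 16 fits that left out 1 array. Commd1, a copper-related trafficking factor, fell by 0.84 ± 0.19 after 14 days (adjusted p = 0.0161). Of 11 iron and heme genes 2 fell after 1 dose and 3 after 14 days, against 0 and 3 with the Gapdh value as a covariate and 0 and 0 without the arrays above 1. Hamp, which encodes the iron hormone hepcidin and whose probe set may not separate its close relative, fell by 0.71 ± 0.17 and 1.29 ± 0.17 (adjusted p = 0.0196 and 0.000953). Tfr2, a sensor of transferrin iron, fell by 1.16 ± 0.28 after 1 dose (adjusted p = 0.0213). After 14 days the iron transporter Slc11a2 fell by 0.69 ± 0.15 (adjusted p = 0.0117), while its other probe set differed by -0.04 ± 0.16 (adjusted p = 0.903). The heme-binding plasma protein Hpx fell by 0.55 ± 0.15 (adjusted p = 0.0326), a call lost in 7 of 16 fits that left out 1 array. The 1-dose calls of Hamp and Tfr2 were lost in 4 of 16 each.

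In the glucocorticoid list and the interleukin 6 and STAT3 list, no mouse gene was called higher after 1 dose. Whether these routes acted on the metallothioneins was not tested. Over all mouse probe sets 4.16% were called higher and 4.14% lower after 1 dose, and 2.24% and 8.48% after 14 days. Of 14 glucocorticoid-responsive genes 0 passed after 1 dose, with an unadjusted p under 0.05 for 2. The smallest p was that of Hsd11b1, which regenerates active glucocorticoid, at -0.33 ± 0.14 (adjusted p = 0.162). After 14 days Tat, a tyrosine-degrading enzyme, fell by 0.59 ± 0.18 (adjusted p = 0.0488), and no other gene of this list passed. That call was lost in 14 of 16 fits that left out 1 array, and 0 genes were called lower with centred arrays. An unadjusted p under 0.05 was found for 5 of the 14, and the median change was -0.55, against -0.15 for all probe sets. An unadjusted p under 0.05 after 1 dose was found for 7 of 21 genes of the interleukin 6 and STAT3 response. All of these but Cebpb were lower. Cebpb, named after its value was seen, differed by 1.04 ± 0.39 (adjusted p = 0.116). Of the 21 genes 3 fell and 0 rose after 1 dose, and those that fell were all fibrinogen chains. Fgb fell by 0.92 ± 0.18 (adjusted p = 0.00914), Fga by 0.71 ± 0.16 (adjusted p = 0.0172) and Fgg by 0.54 ± 0.14 (adjusted p = 0.0326), the Fgg call being lost in 7 of 16 fits that left out 1 array. Without the arrays of a Gapdh value above 1, 0 of the 21 were called lower in either schedule. After 14 days 6 fell and 1 rose, with a median change of -0.68, against -0.15 for all probe sets. Among those that fell were Fgb by 1.40 ± 0.18 (adjusted p = 0.00104), the acute phase protein Orm1 by 1.30 ± 0.26 (adjusted p = 0.00877) and Fga by 1.17 ± 0.16 (adjusted p = 0.00155). The gene that rose was Lcn2, an iron-siderophore-binding protein named after its value was seen, by 0.59 ± 0.16 (adjusted p = 0.0320). That value is from the less variable of its 2 probe sets, and the other is not given here.

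NRF2 is a transcription factor activated by oxidants and electrophiles. After 1 dose 4 of its 16 measured targets rose and 0 fell, where 4.16% of all mouse probe sets were higher and 4.14% lower. The list's median change was 0.37, against -0.09 for all probe sets. Gstm3, a glutathione transferase, rose by 0.92 ± 0.20 (adjusted p = 0.0125), Nfe2l2, which encodes NRF2 itself, by 0.87 ± 0.20 (adjusted p = 0.0176), and the glutathione reductase Gsr by 0.85 ± 0.19 (adjusted p = 0.0149). The epoxide hydrolase Ephx1, named after its value was seen, rose by 0.60 ± 0.16 (adjusted p = 0.0297). With the Gapdh value as a covariate 0 of the 16 were called higher. After 14 days 0 of 16 passed in limma, where 2.24% of all probe sets were higher and 8.48% lower. An unadjusted p under 0.05 was found for 3, and the median was 0.02, against -0.15 for all probe sets.

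Between the schedules, none of the 85 gene entries in these 6 mouse lists differed at an adjusted p under 0.05 in limma, and 13 had an unadjusted p under 0.05. In that comparison 0.209% of all probe sets were called higher and 0.668% lower at 14 days. The smallest adjusted p in the zinc list was that of Slc30a5, with a difference of -1.40 ± 0.33 (adjusted p = 0.0558). The NRF2 target Txnrd1, a thioredoxin reductase, differed by -1.04 ± 0.29 (adjusted p = 0.0820).

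**Figure D3:**
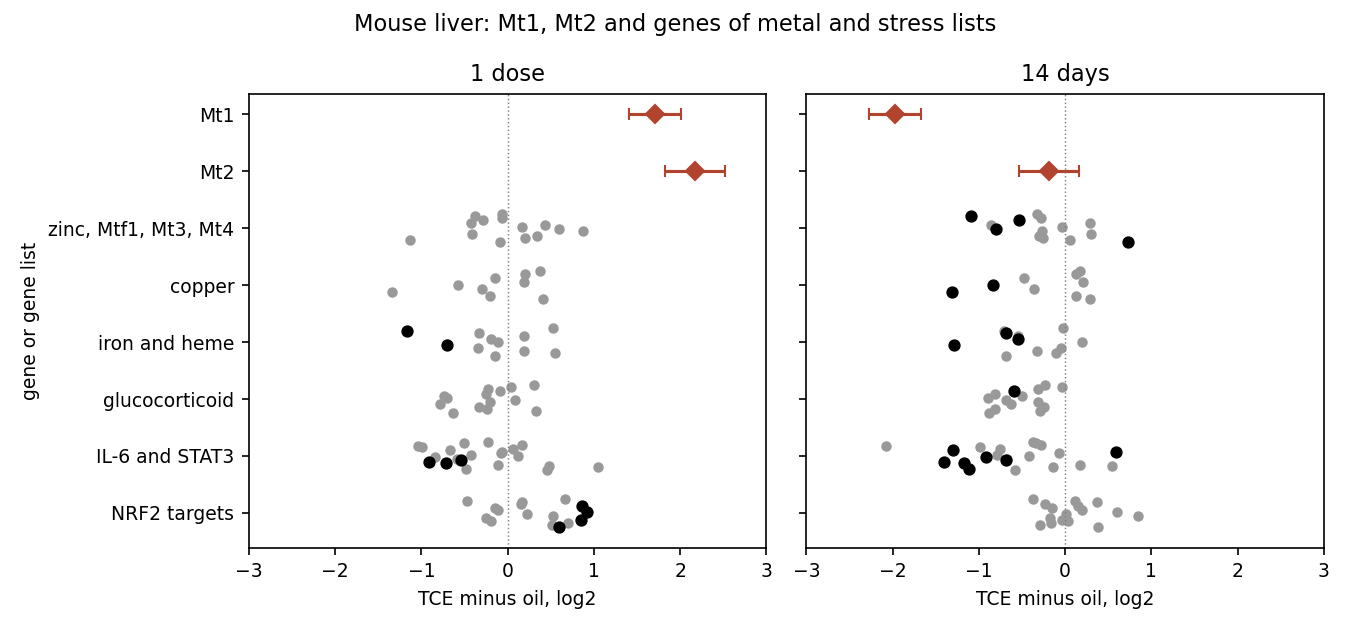
TCE minus oil change in log2 (horizontal axis) in mouse after 1 dose and after 14 days, for Mt1 and Mt2 (red diamonds with SE) and for each measured gene of 6 lists (dots; black where limma's adjusted p is under 0.05). After 1 dose Mt1 and Mt2 lie to the right of every gene of the lists; after 14 days Mt1 lies at -1.98 and Mt2 at -0.19.

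Markers of other liver cells are given beside these groups, since the ratios allow no summed levels. Over all mouse probe sets 4.16% were called higher and 4.14% lower after 1 dose, and 2.24% and 8.48% after 14 days. After 1 dose 0 of 10 macrophage, 0 of 6 endothelial, 0 of 7 stellate cell and 0 of 5 cholangiocyte markers passed in limma, with an unadjusted p under 0.05 for 5, 2, 2 and 0. After 14 days 2 macrophage markers (C1qa and Csf1r) and 1 endothelial marker (Tek) fell, 1 stellate cell marker (Col1a2) rose, and no cholangiocyte marker passed at an adjusted or unadjusted p under 0.05. With centred arrays 0 macrophage and 0 endothelial markers were called lower, and the 1 stellate cell marker was still called higher. An unadjusted p under 0.05 after 14 days was found for 5 macrophage, 2 endothelial and 2 stellate cell markers. Of 9 hepatocyte markers 2 fell in each schedule, against 1 in each with centred arrays. Their unadjusted p was under 0.05 for 3 after 1 dose and 7 after 14 days, with median changes of -0.25 and -0.37. In mouse 0 of 6 exocrine pancreas markers passed at an adjusted or unadjusted p under 0.05. In rat 1.21% of all probe sets were called higher and 0.503% lower after 1 dose, and 2.16% and 0.652% after 14 days. Pecam1, 1 of 2 endothelial markers measured in rat, fell by 1.43 ± 0.26 after 14 days (limma adjusted p = 0.00991). With the Gapdh value as a covariate 0 rat endothelial markers were called lower. No other rat marker passed in either schedule, among 5 macrophage, 7 stellate cell, 4 cholangiocyte, 10 exocrine pancreas and 10 hepatocyte markers. The part of these shifts in the metallothionein values was not tested.

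In rat, the 2 probe sets with several symbols showed no change that passed, and their oil arrays were spread widely. The probe set rc_AI176456_at lists the metallothioneins Mt1m and Mt2A. Its ratios after 1 dose were 0.0888, 0.197, 0.561 and 0.772 on TCE arrays 1 to 4, against 1.634, 0.366, 8.176 and 0.107 on oil arrays 1 to 4. The groups overlapped, and the oil arrays differed among themselves by 76.4-fold. The difference was -1.53 ± 1.10 (log2 ± SE; 95% interval -3.87 to 0.81, limma adjusted p = 0.472). Without oil array 3 the difference was -0.44, and without oil array 4 it was -2.52. After 14 days the ratios were 0.348, 1.199, 0.255 and 1.651 on TCE arrays, against 0.990, 0.820, 2.222 and 1.010 on oil arrays. These groups overlapped too, with a difference of -0.84 ± 1.10 (95% interval -3.186 to 1.498, adjusted p = 0.731). The SE and intervals of both schedules share 1 spread over all rat groups, including the widely spread 1-dose oil arrays. With only the arrays of the comparison the SE was 1.28 after 1 dose and 0.64 after 14 days (limma adjusted p = 0.547 and 0.535). Its within-group SD of 1.70 on the log2 scale was larger than that of 99.2% of rat probe sets.

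The probe set rc_AI102562_at lists Mt1f, Mt1 and Ttr, which encodes the thyroid hormone carrier transthyretin. Its ratios after 1 dose were 0.188, 0.122, 0.888 and 0.865 on TCE arrays 1 to 4, against 1.550, 0.450, 5.884 and 0.432 on oil arrays 1 to 4. TCE arrays 1 and 2 were below every oil array, and TCE arrays 3 and 4 fell within the oil range. The difference was -1.66 ± 0.81 (95% interval -3.39 to 0.06, adjusted p = 0.279), and -0.88 without oil array 3. After 14 days the ratios were 0.416, 0.974, 0.519 and 1.188 on TCE arrays, against 1.074, 0.926, 1.896 and 0.809 on oil arrays. The groups overlapped, with a difference of -0.65 ± 0.81 (95% interval -2.38 to 1.07, adjusted p = 0.713). With only the arrays of the comparison the SE was 0.98 after 1 dose and 0.41 after 14 days (limma adjusted p = 0.390 and 0.448). The schedules differed by 1.01 ± 1.14 for rc_AI102562_at (adjusted p = 0.780) and by 0.68 ± 1.55 for rc_AI176456_at (adjusted p = 0.899). Without 1-dose oil array 3 the schedule difference was 0.23 for rc_AI102562_at and -0.40 for rc_AI176456_at, the opposite sign to that over all arrays.

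**Figure D4:**
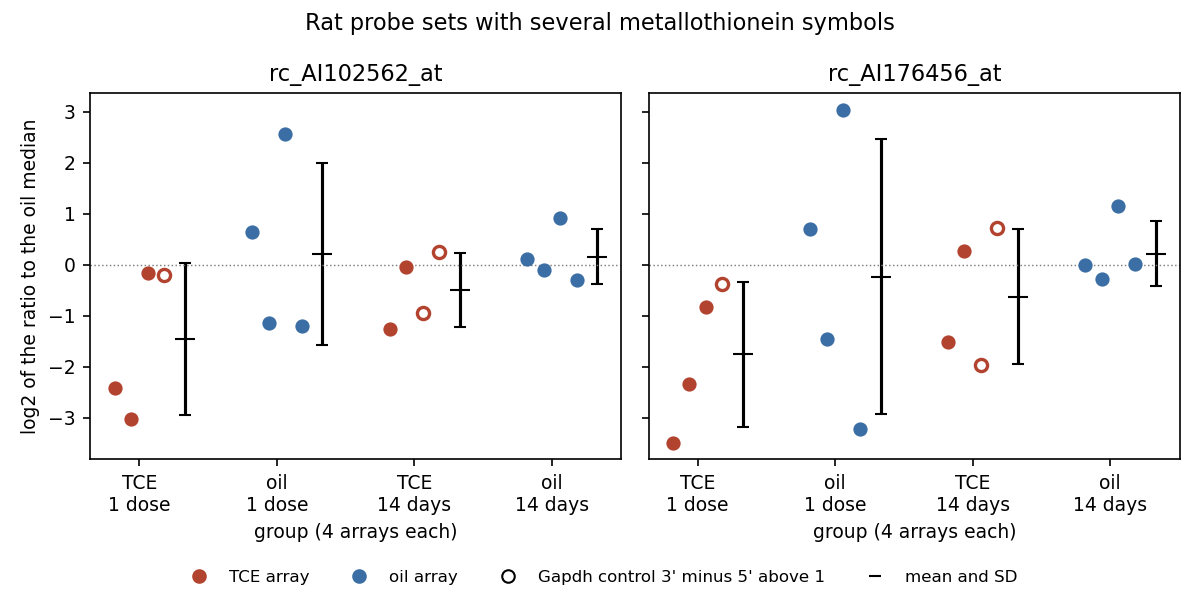
Log2 of the ratio to the oil median (vertical axis) for the 2 rat probe sets on each array, with TCE in red, oil in blue, mean and SD as black bars, and open circles for arrays whose Gapdh control value is above 1. TCE and oil arrays overlap in both schedules, and the oil arrays after 1 dose span the range from 0.107 to 8.176 in rc_AI176456_at.

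The 2 rat probe sets rose and fell together across oil arrays. Over the 8 rat oil arrays r was 0.948 (exact permutation p = 0.000149, two-sided; 0.000298 after Benjamini-Hochberg adjustment over this pair and the mouse pair) and Spearman's rho was 0.929 (exact p = 0.00223; 0.00446 after adjustment). Without the 2 arrays farthest from the median of rc_AI176456_at, r was 0.975. The permutations mixed both schedules, although the oil arrays were spread more widely after 1 dose, so these p-values are approximate. Whether the 2 probe sets bind the same transcripts was not tested. The 2 rat probe sets annotated to Ttr alone varied little, within 0.705 to 1.308 on TCE arrays and 0.841 to 1.094 on oil arrays. The wide spread of rc_AI102562_at was thus not seen in probe sets for Ttr alone. Array 3 was the highest oil array of both schedules in both probe sets. The Gapdh value was above 1 on rat TCE array 4 after 1 dose and TCE arrays 3 and 4 after 14 days. Without them rc_AI102562_at differed by -2.08 and -0.80, and rc_AI176456_at by -1.99 and -0.85 (adjusted p = 0.252, 0.762, 0.392 and 0.825).

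Metal and stress genes in rat gave few calls. After 1 dose 1.21% of rat probe sets were higher and 0.503% lower, and after 14 days 2.16% and 0.652%. Of 3 zinc genes and 4 copper genes 0 passed in either schedule in limma. In the zinc list 1 gene had an unadjusted p under 0.05 in each schedule, the vesicular zinc transporter Slc30a4, with 0.81 ± 0.20 after 1 dose (adjusted p = 0.0594) and 0.46 ± 0.20 after 14 days (adjusted p = 0.238). Slc30a1 differed by 2.80 ± 1.43 and 1.69 ± 1.43 (adjusted p = 0.300 and 0.564). In the copper list 0 and 2 genes had one, with Atp7b at -2.20 ± 0.60 after 14 days (adjusted p = 0.0615). Of 8 iron and heme genes 1 rose after 14 days, the iron-responsive aconitase Aco1, by 0.83 ± 0.17 (adjusted p = 0.0186), a call lost in 3 of 16 fits that left out 1 array. Of 9 glucocorticoid-responsive genes 1 fell in each schedule, the gluconeogenic enzyme Pck1, by 1.40 ± 0.33 (adjusted p = 0.0480) and 1.61 ± 0.33 (adjusted p = 0.0185). The 1-dose call was lost in 14 of 16 fits that left out 1 array, and the 14-day call in 2. Of 17 interleukin 6 and STAT3 genes 0 passed in either schedule in limma, with an unadjusted p under 0.05 for 1 after 1 dose and 3 after 14 days.

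Of 12 rat NRF2 targets 1 rose after 1 dose and 2 after 14 days, with medians of 0.64 and 0.72, against 0.14 and 0.04 for all probe sets. Gclm, a subunit of the glutathione-synthesising ligase, rose by 1.37 ± 0.33 (adjusted p = 0.0499) and 1.68 ± 0.33 (adjusted p = 0.0143). Its other probe sets differed by 1.22 and 0.72 after 1 dose (adjusted p = 0.124 and 0.280) and by 1.80 and 1.21 after 14 days (adjusted p = 0.0277 and 0.0737), and the 1-dose call was lost in 13 of 16 fits that left out 1 array. The quinone reductase Nqo1 rose by 2.04 ± 0.47 after 14 days (adjusted p = 0.0324), while its other probe set differed by -0.90 ± 0.78 (adjusted p = 0.569), and the call was lost in 6 of 16 such fits. With quantile normalization none of the 26 calls of list genes named by the rule in mouse and rat held, and the members' values under it are given with the other settings.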

How the data were processed

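Liver RNA was hybridized to Affymetrix arrays. Signals were made with MAS5 per the submitters' processing notes; no version is named there. The deposited values are ratios: within each schedule the oil median is about 1 for nearly all probe sets, as found from the values. Control probe sets (66 in mouse, 59 in rat) were left out, leaving 12422 and 8740, without floor, filter or pseudocount. Genes were named from probe sets with 1 annotated symbol; of several, the one varying least within groups stood for the gene.

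Log2 ratios were fitted with limma 3.58.1 in R 4.3.3 (group means over 16 arrays of a species), with Benjamini-Hochberg adjustment over all probe sets and a threshold of 0.05. The fit was tested on simulated data. The planned rat test fell to the 2 probe sets with several symbols, since none met the rule. The members and gene lists were chosen with earlier results of these data known. Named by rule were both members and the 5 genes most correlated with Mt1. The rule also named up to 3 genes per list and comparison past the threshold (otherwise that of smallest p). Slc30a1, Mtf1, Mt4 and the cell type markers C1qa, Csf1r, Tek, Col1a2 and Pecam1 were named outside this rule and carry no mark. Other genes outside it are marked as named after their values were seen. Correlations used scipy 1.17.1 and figures matplotlib 3.10.9. Alternatives were other scalings, log2(ratio + 1), fewer arrays, array weights, a replicate block, the Gapdh covariate and a noise filter.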

Additional observations from a re-analysis of the deposited data

Results flagged for a closer look

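Mt1 in mouse was singled out because all 4 TCE arrays were above the oil median after 1 dose and all 4 below it after 14 days, with a difference between schedules of -3.68 on the log2 scale; the difference was not tested, because it chose the gene. On 14-day TCE arrays, the Mt2 ratio of 1.051 on array 2 lay apart from the other 3 arrays of its group. Single arrays also lay apart from their group of 4 for other named genes in mouse. They were oil array 1 after 14 days for Slc39a7 (0.506), Commd1 (1.488), Tfr2 (0.582) and Fgb (1.229), and after 1 dose oil array 2 for Mt3 (0.599) and Hsd11b1 (0.901), TCE array 3 for Fga (0.77), and TCE array 2 (1.296) and oil array 3 (0.824) for Gsr. In rat they were TCE array 4 after 1 dose for Atp7b (0.273) and oil array 4 after 14 days for Nqo1 (0.462). These 12 came from 148 groups examined, where chance alone picks out about 1 in 20.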

How the results depend on the processing

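The signs of the Mt1 and Mt2 changes in mouse were the same under every alternative run, but several runs could not alter them. The replicate block, the noise filter, only the arrays of the comparison, and leaving out an array of the other schedule keep a schedule's difference unchanged. The Mt2 change after 14 days was smaller than its SE (-0.19 ± 0.35), so its sign carries little information. With log2(ratio + 1), which compresses changes by construction, Mt1 differed by 1.07 after 1 dose, -0.66 after 14 days and -1.72 between schedules, and Mt2 by 1.39 after 1 dose and -1.49 between schedules. With quantile normalization Mt1 differed by 1.48 after 1 dose, -1.51 after 14 days and -2.99 between schedules. Mt2 then differed by 1.92, -0.05 and -1.97 in the same order. Without arrays of a Gapdh value above 1, Mt2 differed by -2.94 between schedules. Leaving out 1 array at a time gave Mt1 changes of 1.53 to 1.88 after 1 dose and -2.23 to -1.74 after 14 days, and Mt2 changes of 1.89 to 2.47 and -0.40 to -0.04. For the rat probe sets the ranges were wider, at -2.52 to -0.44 after 1 dose, -1.29 to -0.40 after 14 days and -0.40 to 1.68 between schedules for rc_AI176456_at, and -2.14 to -0.88, -0.90 to -0.40 and 0.23 to 1.48 for rc_AI102562_at. Neither rat probe set with several symbols passed under any alternative run, and the noise filter removed both. Over oil arrays r was 0.773 in mouse and 0.937 in rat with quantile normalization.

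Counts of calls moved strongly. With quantile normalization 43 mouse probe sets were higher and 16 lower after 1 dose (517 and 514 as reported), and 6 and 1 after 14 days (278 and 1053); in rat 2 and 0 after 1 dose (106 and 44), and 7 and 0 after 14 days (189 and 57). Over all settings other than leaving out 1 array, the highest counts were 722 and 830, 475 and 1367, 265 and 176, and 391 and 135 in the same order. Centring gave 721 and 355 in mouse after 1 dose, 475 and 506 after 14 days, and 77 and 107 and 170 and 74 in rat. Without the arrays of a Gapdh value above 1, 9 and 9 mouse probe sets passed after 1 dose and 9 and 49 after 14 days. Between mouse schedules 26 were higher and 83 lower, against 0 and 0 with quantile normalization and 0 and 8 with the replicate block. Of the 26 calls of list genes named by the rule, 18 held after centring, 13 with the Gapdh covariate, 11 with only the arrays of the comparison and 1, Gclm in rat after 14 days, without the arrays above 1. The 4 higher NRF2 targets in mouse ranged from 0 to 6, and the 6 lower interleukin 6 genes after 14 days from 0 to 8. Same-numbered TCE and oil arrays of a schedule had correlations of their deviations between -0.174 and 0.0778. Arrays of different numbers were not compared, so these values do not settle whether the numbers pair arrays. A replicate block cannot move the changes themselves, since every group holds each number 1 time. The SE of the Mt1 changes was 0.34 with the block, against 0.30 without it. With the block 16 of the 26 calls held, and 376 and 349 mouse probe sets passed after 1 dose. Leaving out 1 array at a time, 9 of the 26 calls were never lost. Those lost most often, in 13 or 14 of 16 fits, were Slc39a7 and Tat in mouse after 14 days and Gclm and Pck1 in rat after 1 dose, followed by Atp7b (11), Slc30a5 (9), Hpx (7), Fgg (7), Mt3 (6) and Nqo1 (6). The cause of these differences was not tested.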
